A study of Mus musculus with 3 samples.

Results

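Molecular chaperones and heat shock proteins were represented by 83 of the 30854 gene symbols measured in the embryonic region of wild-type mouse embryos. They were taken by their symbols alone. These were the HSP70, HSP90, HSP60 and small heat shock protein families and the J proteins (*Dnaja*, *Dnajb* and *Dnajc*). The subunits of the chaperonin TRiC, the *Pfdn* subunits of prefoldin, and *Calr*, *Canx* and *Pdia3* were taken as well. The embryos were at the early headfold (EHF) stage. The extraembryonic part had been cut away, and total RNA of what remained was read on 3 Illumina Mouse-6 arrays, referred to as replicates 1, 2 and 3. Strain Cd-1 is given by the sample labels and ICR by the study's methods. Whether an array holds 1 embryo or a pool is not settled by either, so the spread between arrays may be technical. All 3 arrays form a single group, with no treatment, genotype or stage to compare, and levels were compared only with the background of the same array.

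Chaperones bind unfolded or partly folded proteins and keep them from aggregating. HSP70 proteins clasp short stretches of such chains in a cycle driven by ATP, which the J proteins start and nucleotide exchange factors end, and HSP90 acts later, on clients close to their folded form. TRiC and the mitochondrial HSP60 are closed chambers in which a chain folds alone, and prefoldin hands newly made actin and tubulin to TRiC. Most families hold genes used by every cell, genes that heat or other stress induces through heat shock factors, and genes used in few tissues such as testis or muscle.

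The promoters of the stress-inducible genes are known for heat shock elements, in which the triplets GAA and TTC alternate. Sequences of 250 bases before to 50 bases after the start of a gene, from RefSeq with build GRCm38.p6, were found for 68 of the 83 members. They were searched for 3 alternating triplets with 2 bases between neighbours, in the order GAA, TTC, GAA or TTC, GAA, TTC, which are reverse complements of each other and so cover both strands. This element was present in 4 of 68 members (5.88%) and in 0.662% of all 27025 genes with such a sequence. The 4 were *Hspd1*, *Hspe1*, *Dnajb6* and *Hsph1*, which the arrays list under its older symbol *Hsp105*. A pair of triplets, GAANNTTC, which the full element contains, was present in 14 members (20.6%) and in 9.04% of all genes. The pair in the other order, TTCNNGAA, was present in 8 members (11.8%) and in 9.6% of all genes. The letters CCAAT, on either strand, were present in 33 members (48.5%) and in 41.1% of all genes. The sequences below are shown because they come from a pair of divergent genes detected on the arrays, from a detected J protein gene, and from 3 classic stress-inducible genes that were not detected. Capitals mark GAANNTTC and TTCNNGAA, which overlap where they form the full element.
Between Hspd1 and Hspe1, chr1:55088053-55088082, + strand: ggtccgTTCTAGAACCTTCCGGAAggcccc
Dnajb6, chr5:29735818-29735897, + strand: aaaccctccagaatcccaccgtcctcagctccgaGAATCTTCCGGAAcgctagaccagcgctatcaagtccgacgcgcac
Hspa1a, chr17:34972217-34972296, - strand: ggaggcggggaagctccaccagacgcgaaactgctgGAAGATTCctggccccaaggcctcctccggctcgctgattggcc
Hspa1b, chr17:34959299-34959378, - strand: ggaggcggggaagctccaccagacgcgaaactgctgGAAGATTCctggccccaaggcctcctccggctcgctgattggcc
Hspb1, chr5:135887779-135887858, + strand: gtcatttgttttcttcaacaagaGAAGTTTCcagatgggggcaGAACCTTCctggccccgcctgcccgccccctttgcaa

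The start of *Hspe1*, at 55088148 on the + strand, lies 215 bases from a start of *Hspd1*, at 55087932 on the - strand, and the stretch printed above, in which 4 triplets form 2 overlapping matches to the element, stands between them. It is therefore counted for both genes. RefSeq lists another start of *Hspd1* at 55088243, whose window was searched as well, and from that start the stretch lies downstream, on the transcribed side. In *Dnajb6* the element begins 46 bases before the first of its starts. In *Hsph1* it begins 37 bases after one start and 16 bases after the other. *Hspa1a* and *Hspa1b* showed 0 mismatches over the 80 bases printed, and both hold 1 GAANNTTC, which begins 104 bases before the start. *Hspb1* holds it at 117 and at 97 bases. These matches describe letters only, and letters that are missing from a window say nothing about a factor.

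A member was called above background where its detection p, the share of negative-control probes on an array that are at least as bright, was under 0.01 on all 3 arrays. This was the case for 29 of 83 members (34.9%), beside 20.6% of all symbols. Another 7 members met the threshold on 2 arrays, 10 on 1 array and 37 on none. At least 1 array was enough for 46 members, beside 33.0% of all symbols. Of the 29, 26 had a detection p of 0 on every array. The members were not drawn at random from the array, and no test of the difference between these shares was made.

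The second call compares levels. Signals were corrected for background, normalized between arrays and set against the lowest level detected on the same array, and a one-sided limma test was applied to this difference. It called 46 members (55.4%) at an adjusted p under 0.05, beside 25.7% of all symbols. Both calls were made for 28 members, limma alone called 18, and detection alone called *Dnajc28*. The standard error of the difference was 0.149 on the log2 scale (n = 3) for every symbol, because limma replaced the variance of each gene by 1 pooled value. The SE from a member's own 3 differences ranged from 0.027 to 0.44 (*Tcp1*) over the 46 members and exceeded the pooled value in 24, so the adjusted p-values leave out each gene's own spread. The levels also depend on the processing: those of 30 of the 46 members moved by over 1.5 times in at least 1 other setting. With quantile normalization alone *Calr* fell from 4.09 to 2.49 and *Hsp90aa1* from 3.00 to 1.60, and with a lower background level they rose to 4.70 and 3.61. Signals given below are the deposited log2 signals of replicates 1, 2 and 3 in that order, and "above background" is the tested log2 difference. A deposited log2 signal of 6.64 ± 0.05 (SD, n = 3) was the mean background level. Probes differ in how well they hybridize, so no gene's level was set against another's.

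**Figure D1:**
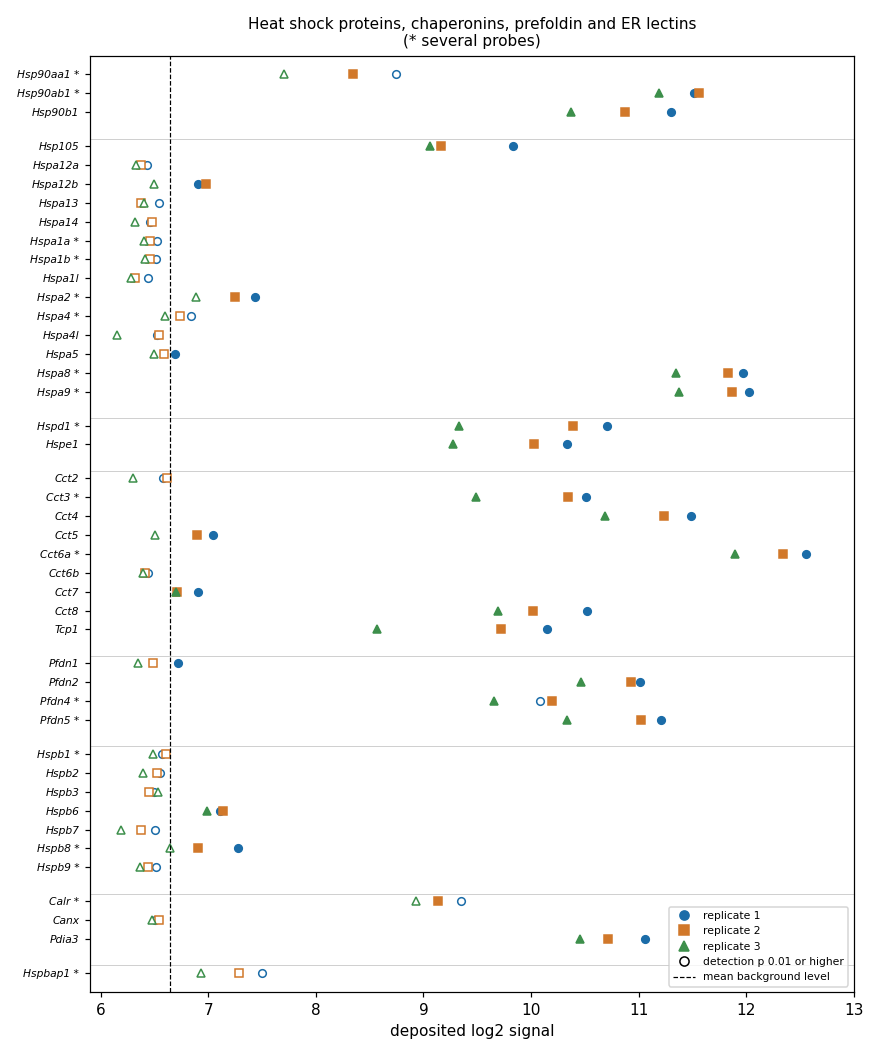
Deposited log2 signal of each of the 43 members other than J proteins on replicates 1, 2 and 3 (horizontal axis), 1 gene a row, with lines between classes. Filled points have a detection p under 0.01, open points do not, and the dashed line is the mean background level of 6.64. Both genes of HSP60 and HSP10 are filled on every array, whereas 8 of 14 HSP70 genes are open on every array. Of all 30854 symbols, 6357 were detected on every array and 20682 on none.

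In the HSP90 class limma called 3 of 3 genes above background, beside 25.7% of all symbols. Of these, 2 were also detected on all arrays, beside 20.6%. *Hsp90ab1*, the constitutive cytosolic HSP90, had signals of 11.52, 11.56 and 11.19 and lay 6.54 above background. *Hsp90b1*, the HSP90 of the endoplasmic reticulum (ER), had 11.31, 10.88 and 10.37 and lay 5.94 above background. All these values are far over the background of their arrays. *Hsp90aa1*, the stress-inducible cytosolic form, had 8.74, 8.34 and 7.71, which limma placed 3.00 above background. Its detection p was 0.011, 1.3e-05 and 0.109, so it was detected on replicate 2 only.

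Among the 14 HSP70 and HSP110 genes, 3 were detected on all arrays (21.4%, beside 20.6% of all symbols). Limma called these and 2 others (35.7% in all, beside 25.7%). *Hspa8*, the constitutive cytosolic HSP70, had signals of 11.97, 11.83 and 11.35 and lay 6.83 above background. *Hspa9*, the HSP70 of mitochondria, had 12.03, 11.87 and 11.38 and lay 6.88 above background. After normalization the arrays differed by 0.03 for *Hspa8* and 0.06 for *Hspa9*, and each symbol has several probes. *Hsp105* (*Hsph1*), an HSP110 that exchanges the nucleotide of HSP70, had 9.84, 9.17 and 9.06 and lay 4.32 above background.

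The heat-inducible genes *Hspa1a* and *Hspa1b* were detected on no array. *Hspa1a* had signals of 6.53, 6.46 and 6.41 with detection p-values of 0.292, 0.498 and 0.206. *Hspa1b* had 6.52, 6.46 and 6.41 with 0.397, 0.462 and 0.214. Both stood below the mean background level on every array. They are known to be nearly identical, so a probe may read transcripts of both, and each symbol has several probes. *Hspa5* (BiP), the HSP70 of the ER, had 6.69, 6.59 and 6.50, with detection p-values of 0.00855, 0.0438 and 0.0705 from 1 probe. It was thus detected on replicate 1 alone and lay -0.20 from the background level. *Hspa2*, known mainly from testis, had 7.43, 7.25 and 6.89, was detected on replicates 1 and 2, and lay 1.33 above background. *Hspa12b*, known from endothelium, had 6.91, 6.98 and 6.50 and was detected on the same arrays. Its 0.34 above background gave an adjusted p of 0.0407 in the limma test, the largest among the 46, and it missed the threshold in 4 of 7 other settings, where its level ran from 0.068 to 0.95. Of the rest, *Hspa1l*, *Hspa4*, *Hspa4l*, *Hspa12a*, *Hspa13* and *Hspa14* were called by neither rule and detected on no array.

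Both genes of the mitochondrial chaperonin were detected on all arrays, beside 20.6% of all symbols. Limma called both as well, beside 25.7%. *Hspd1* (HSP60), which forms the chamber, had signals of 10.71, 10.39 and 9.33 and lay 5.19 above background. *Hspe1* (HSP10), its lid, had 10.34, 10.03 and 9.28 and lay 4.91 above background. Both genes were highest on replicate 1 and lowest on replicate 3. *Hspbap1*, named for binding a heat shock protein, is the one symbol outside the families, and had 7.50, 7.29 and 6.94. It was detected on no array and lay 1.44 above background in the limma test, with several probes.

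TRiC, the chaperonin of the cytosol, is a double ring in which every one of its subunits takes a fixed place. The arrays list 9 symbols, of which *Cct6b* is a form of *Cct6a* known from testis. Of these, 6 were called by both rules. The detected share was 66.7%, beside 20.6% of all symbols, and the limma share 77.8%, beside 25.7%. *Tcp1* (CCT1) had signals of 10.15, 9.72 and 8.57 and lay 4.46 above background. *Cct3* had 10.51, 10.35 and 9.49 and lay 5.16 above background. *Cct4* had 11.49, 11.23 and 10.69 and lay 6.25 above background. In these genes replicate 3 was lowest and replicate 1 highest on the deposited scale. *Cct6a* had 12.56, 12.35 and 11.90 and lay 7.40 above background. *Cct8* had 10.52, 10.02 and 9.70 and lay 5.13 above background. *Cct7* was close to background, with 6.90, 6.71 and 6.70, and lay 0.39 above it. Its adjusted p in the limma test was 0.0177, and it missed the threshold in 4 of 7 other settings.

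The other TRiC symbols were not detected on all arrays. *Cct5* had signals of 7.05, 6.90 and 6.50, was detected on replicates 1 and 2, and lay 0.39 above background (adjusted p = 0.0176 by limma, missed in 4 of 7 other settings). *Cct2* had 6.58, 6.61 and 6.30 and was detected on no array. *Cct6b* had 6.44, 6.41 and 6.40 and was not detected either. The mean log2 signals of the symbols of this complex ran from 6.41 to 12.27, and the part that differences between probes have in this range was not tested. *Cct2* was read from 17, 27 and 30 beads, where the median symbol had 43 or more.

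Prefoldin had 4 symbols among the members, all named *Pfdn*. *Vbp1*, a subunit under another name, is counted below with the prefoldin-like genes. It had signals of 7.34, 7.12 and 6.71, was detected on no array and lay 1.03 above background. *Pfdn2* had signals of 11.01, 10.93 and 10.47 and lay 5.89 above background. *Pfdn5* had 11.21, 11.02 and 10.34 and lay 5.94 above background. Both subunits were detected on all arrays. *Pfdn4* had 10.08, 10.19 and 9.66 and lay 5.01 above background, but its detection p of 0.055 on replicate 1 missed the threshold. *Pfdn1* had 6.72, 6.49 and 6.35 and was detected on replicate 1 only.

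The small heat shock proteins hold unfolding proteins without ATP. Of 7 genes, 5 were detected on no array, which is close to the share of all symbols, 20682 of 30854. *Hspb6* (HSP20) alone was detected on all arrays (14.3%, beside 20.6% of all symbols), and limma called 2 genes (28.6%, beside 25.7%). *Hspb6* had signals of 7.11, 7.14 and 6.99 and lay 1.15 above background. *Hspb8*, a partner of the co-chaperone *Bag3*, had 7.28, 6.90 and 6.65, was detected on replicates 1 and 2, and lay 0.76 above background. *Hspb1* (HSP25), a heat-inducible gene, had 6.57, 6.60 and 6.49 and was detected on no array. The same held for *Hspb2*, *Hspb3* and *Hspb7*, which are known from heart and skeletal muscle, and for *Hspb9*, known from testis.

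Calreticulin (*Calr*) and calnexin (*Canx*) hold newly made glycoproteins in the ER, and *Pdia3* joins them to form disulfide bonds. *Pdia3* had signals of 11.06, 10.72 and 10.45 and lay 5.83 above background. *Calr* had 9.35, 9.14 and 8.94, each well over the background level, and lay 4.09 above it. Its detection p, taken to be combined over several probes, was 0.287, 0.000622 and 0.0552, so it was detected on replicate 2 only. *Canx*, with 1 probe, had 6.51, 6.54 and 6.48 and was detected on no array.

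**Figure D2:**
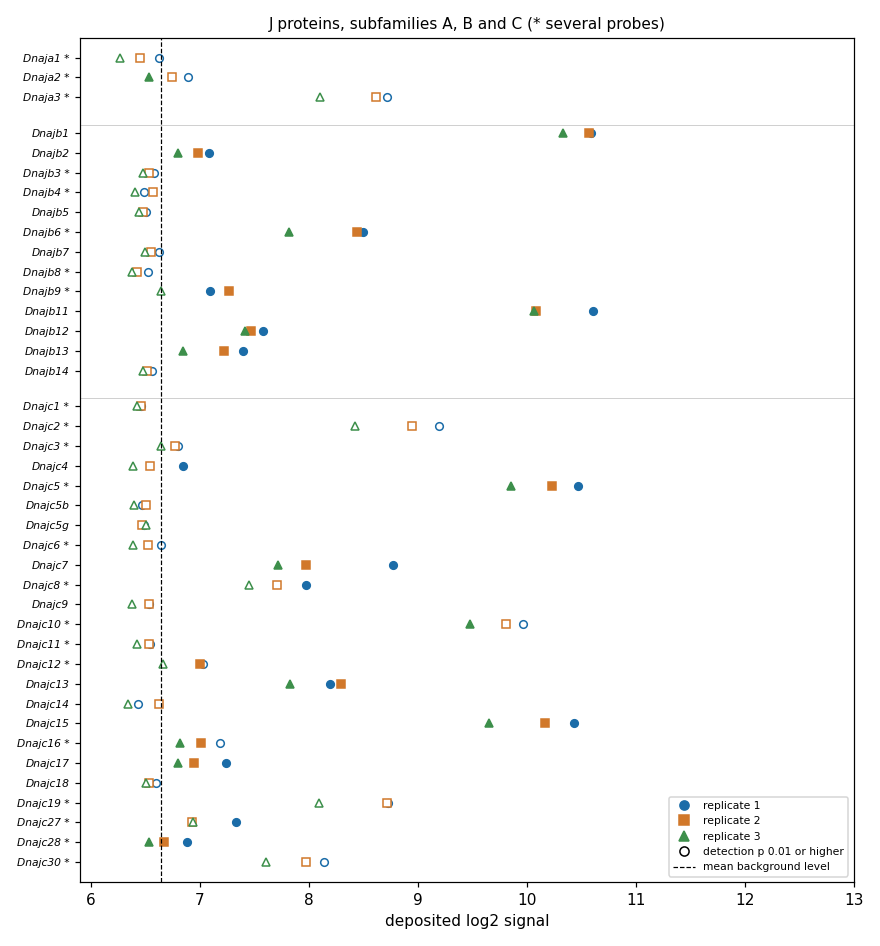
Deposited log2 signal of each of the 40 J proteins on replicates 1, 2 and 3 (horizontal axis), in subfamilies A, B and C, 1 gene a row. Filled points have a detection p under 0.01 and the dashed line is the mean background level of 6.64. Of the 40 genes, 12 are filled on every array and 20 are open on every array, beside 6357 and 20682 of all 30854 symbols.

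J proteins recruit HSP70 to a client or a place in the cell and start its ATP cycle. Of 40 genes, 12 were detected on all arrays (30.0%, beside 20.6% of all symbols) and 21 were called by limma (52.5%, beside 25.7%). Several probes were inferred for 22 of the 40, and limma called 38.4% of all symbols with several probes. Subfamily A, whose members resemble the bacterial DnaJ most, had 3 symbols and no gene detected on all arrays. *Dnaja1* had signals of 6.62, 6.45 and 6.26 and *Dnaja2* had 6.89, 6.75 and 6.53, and limma called neither. *Dnaja3*, a mitochondrial partner of *Hspa9*, had 8.72, 8.61 and 8.11 and lay 3.30 above background, without a detection call on any array.

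In subfamily B, the cytosolic *Dnajb1* (HSP40), a heat-inducible partner of HSP70, had signals of 10.58, 10.57 and 10.33 and lay 5.57 above background. *Dnajb6*, which keeps polyglutamine proteins soluble, had 8.49, 8.44 and 7.82 and lay 3.00 above background. *Dnajb2*, known from neurons, had 7.09, 6.98 and 6.80 and lay 0.86 above background. These genes were detected on all arrays, *Dnajb1* far over the background and *Dnajb2* close to it. *Dnajb11*, a partner of BiP in the ER, had 10.60, 10.08 and 10.06 and lay 5.30 above background. *Dnajb12*, in the ER membrane, had 7.58, 7.47 and 7.41 and lay 1.89 above background. *Dnajb9*, a further ER partner that is induced by ER stress, had 7.10, 7.27 and 6.64, was detected on replicates 1 and 2, and lay 0.90 above background. *Dnajb13*, known from sperm flagella and motile cilia, was detected on all arrays with 7.40, 7.22 and 6.85 and lay 1.26 above background. *Dnajb3*, *Dnajb4*, *Dnajb5*, *Dnajb7*, *Dnajb8* and *Dnajb14* were called by neither rule.

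Subfamily C, whose members share little beyond the J domain, held 6 genes detected on all arrays. *Dnajc5* (cysteine string protein), found on secretory vesicles, had signals of 10.47, 10.23 and 9.86 and lay 5.24 above background. *Dnajc15*, at the inner mitochondrial membrane, had 10.43, 10.16 and 9.65 and lay 5.12 above background. *Dnajc7* (TPR2), which binds HSP70 and HSP90 at once, had 8.77, 7.97 and 7.72 and lay 2.85 above background. Replicate 1 was the highest of the 3 arrays for each of them on this scale. *Dnajc13*, of endosomes, had 8.19, 8.29 and 7.83 and lay 2.82 above background. *Dnajc17* had 7.24, 6.94 and 6.80 and lay 0.92 above background. *Dnajc28* stood at the border: its signals were 6.88, 6.67 and 6.53, its detection p on replicate 3 was 0.00666, and it lay 0.11 above background (adjusted p = 0.821 by limma). No other member had its deciding detection p near the threshold of 0.01.

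Several further subfamily C genes had signals over background but no detection call on all arrays. *Dnajc10*, a disulfide reductase of the ER, had signals of 9.96, 9.81 and 9.48 and lay 4.77 above background. *Dnajc2*, a ribosome-bound J protein, had 9.19, 8.95 and 8.42 and lay 3.75 above background. *Dnajc19*, at the mitochondrial import motor, had 8.72, 8.72 and 8.10 and lay 3.34 above background. Limma called each of them, and each has several probes. The same held for *Dnajc8*, *Dnajc12*, *Dnajc16*, *Dnajc27* and *Dnajc30*, which lay 2.25, 0.69, 0.96, 1.09 and 2.53 above background. *Dnajc8*, of the splicing machinery, had signals of 7.98, 7.71 and 7.45. *Dnajc30*, of mitochondria, had 8.14, 7.97 and 7.61 and was detected on no array. *Dnajc27* had 7.33, 6.93 and 6.94. Of the remaining genes, which were closer to the background, *Dnajc16* was detected on replicates 2 and 3 and *Dnajc12* on replicate 2 only. *Dnajc1* and *Dnajc3*, both of the ER, were called by neither rule. Their signals were 6.46, 6.46 and 6.42 for *Dnajc1* and 6.80, 6.77 and 6.65 for *Dnajc3*. *Dnajc4* was detected on replicate 1 only. *Dnajc5b*, *Dnajc5g*, *Dnajc6*, *Dnajc9*, *Dnajc11*, *Dnajc14* and *Dnajc18* were detected on no array and not called by limma.

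The number of probes moved with the difference between both calls. Probe numbers inferred from bead numbers gave 1 probe for 43 members and several for 40. Among members with 1 probe, 19 (44.2%) were detected on all arrays, beside 20.8% of all such symbols, and 2 (4.65%) were called by limma alone, *Cct5* and *Hspa12b*, beside 0.487%. Among members with several probes, 10 of 40 were detected, beside 20.1% of all such symbols, and 16 of 40 were called by limma alone, beside 19.9%. For these the detection p is taken to be combined over the probes and the signal to be their mean. This is inferred from bead numbers and steps of the detection p, since the separate probes are not in the table. The 18 members called by limma alone had mean log2 signals from 6.79 to 9.98, and 5 of them were detected on no array. The 36 members that neither rule called had mean log2 signals from 6.35 to 6.74, which does not show that they are absent from the embryo.

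**Figure D3:**
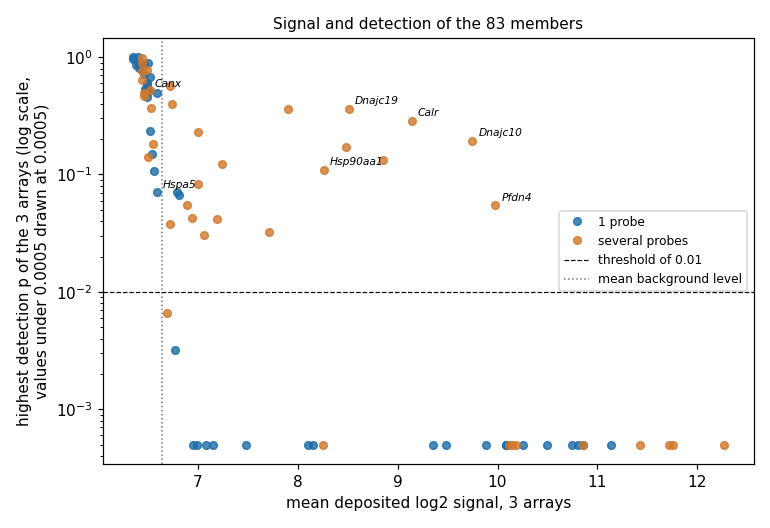
Mean deposited log2 signal (horizontal axis) and highest detection p of the 3 arrays (vertical axis, log scale, values under 0.0005 drawn at that value) of the 83 members, by number of probes. The dashed line is the threshold of 0.01 and the dotted line the mean background level of 6.64. The points far to the right of the background and above the threshold, such as *Pfdn4* and *Dnajc10*, have several probes.

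Grouped by place in the cell, 4 of 8 mitochondrial members were detected on all arrays and 7 were called by limma, with *Dnajc11* the exception, beside 20.6% and 25.7% of all symbols. Of 15 members of the ER, 4 (26.7%) were detected (*Hsp90b1*, *Pdia3*, *Dnajb11* and *Dnajb12*) and 8 were called by limma. Of 10 members known mainly from testis, 1 was detected (*Dnajb13*), 2 were called by limma (*Dnajb13* and *Hspa2*), and 8 were detected on no array. These groups were put together after the values had been seen, so the shares are a description only.

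Genes outside the members that work with chaperones, or are chaperones under other symbols (*Trap1*, *Hyou1* and *Vbp1*), were counted from lists. Of 55 such genes, 29 were detected on all arrays (52.7%, beside 20.6% of all symbols) and 35 were called by limma, beside 25.7%. The co-chaperones of HSP70 and HSP90 made up most of them, with 17 of 23 detected. *Stip1* (HOP), which links HSP70 to HSP90, had signals of 11.68, 11.42 and 11.00. *Fkbp4*, a cochaperone of steroid receptors, had 12.82, 12.49 and 12.14. *Bag3*, an exchange factor of HSP70 that heat induces, had 9.93, 9.49 and 9.05. All were detected on every array. Of the factors that govern the heat shock response, *Hsf1* had 9.67, 9.56 and 9.48, with several probes and detection p-values of 0.429, 0.0321 and 0.0521. *Hsf2* was detected on replicate 1 only, *Hsf4* and *Hsf5* on no array, and the small inhibitor *Hsbp1* on all 3, with 7.92, 8.02 and 7.37.

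Prefoldin-like proteins and cofactors of tubulin folding were detected in 3 of 9 cases (*Pdrg1*, *Tbca* and *Tbcb*), beside 20.6% of all symbols. Limma called 6 of them, beside 25.7%. Folding enzymes and stress sensors of the ER were detected in 8 of 15 cases (53.3%, beside 20.6%), and limma called 8, beside 25.7%. They included *P4hb*, a disulfide isomerase, with signals of 12.58, 12.30 and 11.86, and *Xbp1*, a transcription factor of the unfolded protein response, with 10.16, 9.89 and 9.49. The sensors *Ern1*, *Eif2ak3* and *Atf6* were detected on no array. The crystallins *Cryaa* and *Cryab*, relatives of the small heat shock proteins, were called by neither rule.

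Of 20 genes that heat is known to induce, 13 of them members, 10 were detected on all arrays and 7 on none. The detected members were *Hspa8*, *Hsp105*, *Dnajb1*, *Hspd1* and *Hspe1*, and those on no array were *Hspa1a*, *Hspa1b*, *Hspb1*, *Dnaja1*, *Dnajb4* and *Hspa4l*. Of 15 genes that ER stress is known to induce, 8 of them members, 8 were detected (53.3%, beside 20.6% of all symbols). The detected members were *Hsp90b1*, *Pdia3* and *Dnajb11*, while *Hspa5*, *Calr*, *Dnajb9*, *Canx* and *Dnajc3* did not pass on all arrays. There is no unstressed or stressed control on these arrays, so the lists describe levels and not a response. The full heat shock element was held by 4 of the 24 detected members with a promoter sequence, of which *Hspd1* and *Hspe1* share theirs, and by 0 of the 44 others, beside 0.662% of all genes. GAANNTTC was held by 20.8% of the detected and 20.5% of the other members, beside 9.04% of all genes. TTCNNGAA was held by 20.8% and 6.82%, beside 9.6%, and CCAAT by 54.2% and 45.5%, beside 41.1%.

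Without a second group, the arrays allow only a description of how the members varied among replicates. After normalization the 29 detected members had a median SD of 0.17 on the log2 scale, beside 0.17 for all 6357 detected symbols. The values were 0.15 beside 0.13 with deposited signals centred on the median, and 0.13 beside 0.11 with quantile normalization alone. Of them, 7 lay above the upper quartile of all detected symbols (0.26) and 9 below the lower quartile (0.11). Normalized levels, unlike the deposited signals, have the overall brightness of the arrays taken out.

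The 8 genes with the largest range were *Tcp1*, *Hspd1*, *Dnajc7*, *Hspb6*, *Dnajb12*, *Cct7*, *Hsp105* and *Dnajb11*. *Tcp1* had normalized levels of 9.77, 9.51 and 8.68, a range of 1.09, which is larger than that of 98.9% of the detected symbols. *Hspd1* had 10.34, 10.23 and 9.56, a range of 0.78. Replicate 3 stood apart in both. *Dnajc7* had 8.17, 7.41 and 7.54, a range of 0.75, with replicate 1 apart. *Hspb6* had 5.67, 6.05 and 6.29, a range of 0.61, with the arrays in the opposite order. The ranges of *Dnajb12*, *Cct7*, *Hsp105* and *Dnajb11* were 0.54, 0.53, 0.51 and 0.46. The 4 smallest ranges were those of *Hspa8* (0.03), *Cct6a* (0.06), *Hspa9* (0.06) and *Dnajc5* (0.07), each with several probes.

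For symbols with 1 probe the deposited standard error over beads gives a limit for the difference between the highest and the lowest array. The range was beyond its 95% limit in 12 of 19 detected members with 1 probe, beside 72.8% of all such symbols, with the highest and lowest array picked after the fact. The limit was taken from the deposited signals and the range from the normalized levels. Normalization lowered dim signals more, on replicate 1 from 6.90 to 5.23 for *Cct7* and from 10.15 to 9.77 for *Tcp1*. The limit can therefore be too narrow for dim symbols, and how far this raises both shares was not tested. *Tcp1* and *Dnajc7* were beyond the limit, and *Hspe1*, *Hsp90b1*, *Cct4*, *Pdia3*, *Dnajb2*, *Dnajc15* and *Pfdn2* were within it.

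**Figure D4:**
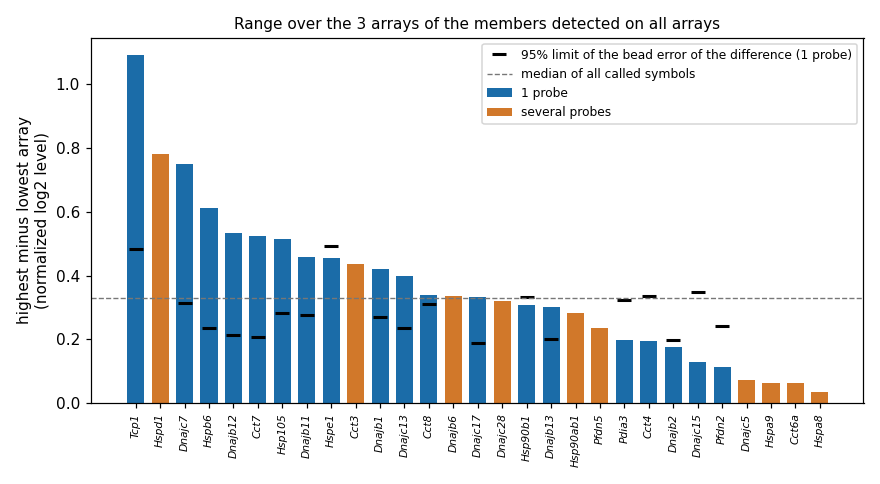
Highest minus lowest array of the normalized log2 level (vertical axis) for the 29 members detected on all arrays, in order of size. Bars are coloured by number of probes, and the dashed line is the median of all detected symbols, 0.33. Short marks give the 95% limit from the bead error of the deposited signals, for members with 1 probe. *Tcp1* stands first at 1.09 and *Hspa8* last at 0.03.

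By array, 14 of 29 detected members were highest on replicate 1 (48.3%), beside 29.4% of all detected symbols. On replicate 2 it was 5 (17.2%), beside 29.4%, and on replicate 3 it was 10 (34.5%), beside 41.2%. The lowest array was replicate 3 for 13 members (44.8%), beside 34.0%. For replicates 1, 2 and 3, the median log2 difference of a member from the mean of the other arrays was 0.098, 0.0060 and -0.015. Over all detected symbols it was -0.0086, -0.0093 and 0.030. On replicates 2 and 3 the sign turned when only members with 1 probe were taken, to -0.018 and 0.059.

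Of the 8 detected TRiC and HSP60/HSP10 genes, 6 were lowest on replicate 3, beside 34.0% of all detected symbols. The count was 6 with quantile normalization alone and 7 with deposited signals centred on the median. TRiC alone gave 4 of 6, and both classes were joined after the values had been seen, so the count is a description only. On replicate 3, *Tcp1* differed from the mean of the other arrays by -0.96 on the log2 scale, *Hspd1* by -0.73 and *Hspe1* by -0.39. *Cct3* differed by -0.42, *Cct4* by -0.14, *Cct6a* by -0.061 and *Cct8* by -0.015, while *Cct7* was highest on that array. The median over the 6 TRiC genes was -0.099. J proteins were lowest on each array equally often, in 4 of 12 cases. The 10 detected heat-inducible genes, which include *Hspd1* and *Hspe1*, had a median difference of 0.26 on replicate 1, 0.018 on replicate 2 and -0.084 on replicate 3. For the 8 detected ER stress genes it was 0.067, -0.084 and -0.092. Visceral endoderm markers also differed between the arrays. The 12 markers of that tissue were all detected, beside 20.6% of all symbols. They had a median difference of 0.56 on replicate 2 and -0.24 on replicate 3, and 8 of the 12 were lowest on replicate 3. Replicate 3 also had the fewest symbols detected, 7191 beside 9015 on replicate 1. Embryonic region markers were detected in 9 of 12 cases, with median differences of 0.39, -0.21 and -0.13 on replicates 1, 2 and 3. Among the detected ones, *T*, *Mixl1*, *Mesp1* and *Dnmt3b* had the same order of arrays as *Tcp1* and *Hspd1*. In these markers replicate 1 stood apart, however, whereas in *Tcp1* and *Hspd1* replicate 3 did. Normalized levels were 10.42, 9.98 and 9.83 for *T* and 6.004, 5.28 and 4.97 for *Mixl1*. They were 6.41, 5.50 and 5.47 for *Mesp1*, and 12.033, 11.623 and 11.618 for *Dnmt3b*. On replicate 3 *Mixl1* lay below the background level of 5.06. *Pou5f1*, *Fgf8*, *Otx2*, *Cer1* and *Utf1* had other orders. Of these, *Fgf8* (7.88, 7.51 and 7.94), *Otx2* and *Utf1* were highest on replicate 3. Of 10 genes listed as extraembryonic ectoderm markers, 4 (*Cdx2*, *Ets2*, *Rhox5* and *Tfap2c*) were detected on all arrays (40.0%, beside 20.6% of all symbols). *Elf5*, *Eomes*, *Ascl2*, *Gcm1* and *Prl3d1* were detected on no array. Which tissue the detected genes came from was not tested. The 4 had median differences of 0.15, 0.12 and -0.25, and all were lowest on replicate 3. Their ranges were 0.14 for *Cdx2*, 0.093 for *Tfap2c*, 0.38 for *Ets2* and 1.21 for *Rhox5*. The part of any of these in the chaperonin levels was not tested. In bulk RNA, fewer cells of a type and less RNA per cell cannot be told apart.

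**Figure D5:**
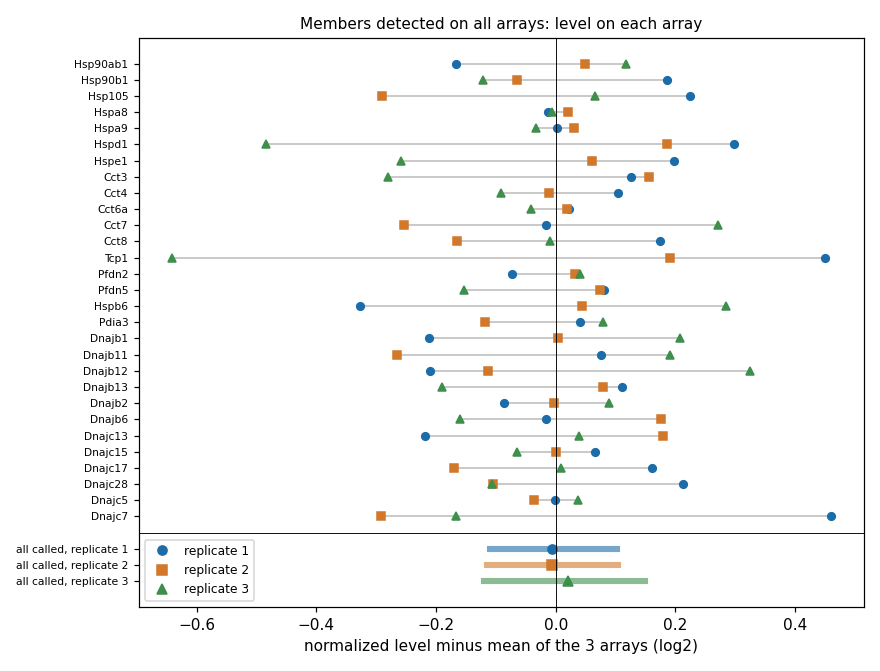
Normalized log2 level of the 29 detected members on each array minus the mean of the 3 arrays (horizontal axis), 1 gene a row in the order of the classes. The bottom rows give the median and the quartiles of all 6357 detected symbols. *Tcp1* and *Hspd1* reach farthest to the left on replicate 3, and *Dnajc7* farthest to the right on replicate 1.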

How the data were processed

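The table deposited by the authors gives, for each gene symbol and array, a log2 signal not normalized between arrays. With it come the mean number of beads, the standard error over beads (an intensity on a linear scale, as deposited) and a detection p-value. Partek is named in the submitters' processing notes, and how probes were averaged is not given in the sources used here. Columns without a sample numbered 0. Depth does not apply to arrays, whose number limits the precision.

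The number of probes was taken as the smallest that made bead numbers whole (tolerance 0.01), with 1 probe only where detection p lay on steps of 1 in 936 (tolerance 0.002). It was not resolved for *Dnaja1*, *Dnajc6*, *Hspb8*, *Hspb9* and *Hspbap1*, which were counted as having several. Signals were corrected with normexp (offset 16) and quantile normalized. As background level served, per array, the dimmest 1-probe symbol whose detection p was not 0 and was under 0.01. The difference was tested with limma 3.58.1 in R 4.3.3 (lmFit, eBayes, one-sided, Benjamini-Hochberg over 30854 symbols). Other steps used Python 3.11.15, numpy 2.4.6 and pandas 2.3.3. The test was checked on simulated data.

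Named genes are the detected members of each class, a list of J proteins, the 8 largest and 4 smallest ranges, and members whose calls differ. The members and lists were chosen with earlier results of these data known. Alternatives were other thresholds, another normalization or background level, and omitting each array in turn.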

Additional observations from a re-analysis of the deposited data

How the results depend on the processing

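The count of 29 detected members became 46 with detection on at least 1 array, 46 with the limma test and 19 among members with 1 probe, and stayed between 27 and 36 with other thresholds. Leaving out each array gave 29 to 34. The limma count of 46 ranged from 42 to 59, and from 43 to 50 without an array. Related genes numbered 24 to 37, and 30 to 31 without an array. The median SD of 0.17 ranged from 0.13 to 0.20, and from 0.11 to 0.17 without an array. Of 47 levels followed over 7 settings, 312 of 329 values kept their direction and their side of the threshold, and 41 members passed in every setting. The levels themselves moved by over 1.5 times for 30 of 46 members. They were lowest with quantile normalization alone for 45 of them (*Hspb6* 0.44 for 1.15, *Dnajb2* 0.31 for 0.86) and highest for all 46 with the background set to the median of undetected symbols (1.76 and 1.47). *Cct5*, *Cct7* and *Hspa12b* missed the threshold with median scaling, with quantile normalization alone, and without replicate 1 or 2, and *Dnajb9* and *Hspb8* with median scaling. *Dnajc28* changed direction without replicate 1, to -0.071, and passed without replicate 3, at 0.31, and with the background set to the median of undetected symbols, at 0.72. The cause was not tested. No paired analysis was possible because the arrays form only 1 group.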
